A study of Homo sapiens with 6 samples.

Results

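The 7 genes described here have products that act on the cytoskeleton or the cell membrane and transcripts with exons that Rbfox proteins are known to regulate: ENAH, EPB41, FMNL3, MYH10, CTTN, PICALM and KIF21A. The data used were the intronic clusters, short places covered by sequenced RNA, whose gene field named 1 of the 7 genes alone. After repeated rows had been dropped there were 707 such clusters in the list for wild-type Rbfox1 (WT) and 383 in the list for Rbfox1 F125A, or 1090 of 554456 clusters in all. The RNA came from FLAG-tagged Rbfox1 purified with LASR, a large assembly of splicing proteins, and was the part that nuclease had not digested. The WT group had 3 libraries with FLAG-Rbfox1(WT), the F125A group had 2 with FLAG-Rbfox1(F125A), and 1 control library came from cells with no transgene. All 6 libraries were made from the same HEK293 Flp-In line labelled Rbfox2 KO#7, a human embryonic kidney line that lacks Rbfox2, so the knockout was shared by every group. F125A exchanges a phenylalanine in the RNA recognition motif of Rbfox1 for alanine. The comparison addresses which intronic places of these transcripts were recovered with each form of the protein.

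Rbfox proteins bind the RNA pentamer GCAUG, and their effect on an exon depends on where they sit: binding downstream of an exon tends to favour its inclusion and binding upstream its skipping. Many of their targets encode proteins of the actin and microtubule cytoskeleton. ENAH extends actin filaments, FMNL3 is a formin that nucleates them, and CTTN (cortactin) stabilises their branches. EPB41 (protein 4.1R) joins spectrin and actin to the membrane, MYH10 is the heavy chain of non-muscle myosin IIB, KIF21A is a kinesin that restrains microtubule growth at the cell cortex, and PICALM is a clathrin assembly protein of endocytosis rather than a cytoskeletal protein in the strict sense.

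The lists hold no reads, scores or libraries, so each group is represented by 1 list, no value has a replicate error, and no test of the conditions could be made. The read depth behind each list is unknown. Intervals are exact (Clopper-Pearson) 95% intervals for counting error and treat clusters as independent. The number of clusters in a gene can also follow how much of its RNA the cells make, which was not measured here. The WT list held 1.95 clusters for each F125A cluster over all genes, 366429 against 188027, and rests on 3 libraries against 2. A gene with that same ratio therefore stands at 0 on the log2 scale used below.

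Where the clusters began was read against the annotated promoters, and the EPB41 pair is shown because its clusters started only after the inner promoter. RefSeq (GRCh38.p14) gave 8 promoter windows for 6 of the 7 genes, each of 300 bases that end 50 bases after a transcript start. None of the windows overlapped a cluster. The lists hold intronic clusters only, so bases before an outermost gene start could hold none of that gene. The lack of overlap there is no finding about where clusters began. The outer EPB41 window lies at chr1:28886850-28887149 and the inner one at chr1:28914319-28914618, both on the plus strand. No cluster of either list lay between them. The nearest clusters downstream of the inner window began 360 nt beyond it in the WT list and 372 nt beyond it in the F125A list. This was not particular to EPB41. PICALM also had a pair of windows, and 0 clusters of either list lay upstream of its inner one. The next PICALM clusters began 971 nt (WT) and 888 nt (F125A) beyond that window. The third sequence is that of FMNL3, at chr12:49707356-49707655 on the minus strand, the only window of the 8 with GCATG on the transcribed strand. Capitals mark GCATG.

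EPB41 outer promoter: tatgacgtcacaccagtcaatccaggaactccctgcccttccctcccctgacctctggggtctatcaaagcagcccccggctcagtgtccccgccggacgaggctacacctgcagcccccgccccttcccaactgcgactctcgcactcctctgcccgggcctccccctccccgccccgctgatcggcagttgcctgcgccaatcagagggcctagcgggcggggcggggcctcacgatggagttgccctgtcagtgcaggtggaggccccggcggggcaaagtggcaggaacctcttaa
EPB41 inner promoter: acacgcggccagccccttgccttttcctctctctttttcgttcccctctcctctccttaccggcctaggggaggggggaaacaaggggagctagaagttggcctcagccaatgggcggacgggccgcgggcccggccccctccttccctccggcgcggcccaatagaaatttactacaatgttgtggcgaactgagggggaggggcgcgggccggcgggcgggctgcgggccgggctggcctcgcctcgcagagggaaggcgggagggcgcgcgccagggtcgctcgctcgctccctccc
FMNL3 promoter: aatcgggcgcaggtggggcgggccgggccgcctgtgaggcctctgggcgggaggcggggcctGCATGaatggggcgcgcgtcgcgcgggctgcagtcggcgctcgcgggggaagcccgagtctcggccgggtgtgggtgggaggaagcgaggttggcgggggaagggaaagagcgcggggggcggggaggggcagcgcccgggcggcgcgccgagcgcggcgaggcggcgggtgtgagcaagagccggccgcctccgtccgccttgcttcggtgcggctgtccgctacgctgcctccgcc

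The GCATG of FMNL3 began at position 63 of its window, ahead of the start site, and formed part of TGCATG. Of 35116 promoter windows of that length in the RefSeq table, 19.6% held GCATG on the transcribed strand, 29.5% on either strand, and 5.23% held TGCATG on the transcribed strand. The match is a description of the letters in this window, and these bases lie outside the RNA that starts at that site. The outer EPB41 window had 19 CG dinucleotides and the inner one 29, against a median of 14 over all windows, and FMNL3 had 45. The sequences under the clusters themselves were not analysed here.

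ENAH stood out for the number of its clusters. It lies on chromosome 1 (225486829 to 225653878, minus strand, 167 kb) and held 274 WT and 178 F125A clusters, more than any of the other 6 genes in either list. Per kb of gene this was 1.64 WT and 1.07 F125A clusters, at percentiles 95.3 and 93.5 of the 5626 genes that had 20 clusters or more when both lists were summed. The median gene had 0.58 WT and 0.297 F125A clusters per kb. Clusters of either list together covered 13.1% of the ENAH gene.

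CTTN and FMNL3, which also act on actin filaments, held fewer clusters. CTTN, on chromosome 11 (70398529 to 70436575, plus strand, 38 kb), had 41 WT and 25 F125A clusters, which for the shortest of the 7 genes meant 1.08 and 0.657 per kb (percentiles 83.4 and 82.4). FMNL3, on chromosome 12 (49636499 to 49707405, minus strand, 70.9 kb), had 15 WT and 17 F125A clusters, or 0.212 and 0.24 per kb (percentiles 10.5 and 40.6). FMNL3 was thus sparse in the WT list and the only 1 of the 7 genes with more F125A than WT clusters.

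EPB41, the membrane skeleton gene, was the longest and sparsely covered. On chromosome 1 (28887100 to 29120041, plus strand, 233 kb) it had 73 WT and 35 F125A clusters, or 0.313 and 0.15 per kb (percentiles 20.4 and 23.5). The motor genes were close to the typical density: MYH10, on chromosome 17 (8474212 to 8630725, minus strand, 157 kb), had 97 and 49 clusters, or 0.62 and 0.313 per kb. KIF21A, on chromosome 12 (39293228 to 39443120, minus strand, 150 kb), had 109 and 47, or 0.727 and 0.314 per kb. PICALM, on chromosome 11 (85957175 to 86069860, minus strand, 113 kb), had nearly as many WT clusters as MYH10 but fewer F125A clusters, 98 against 32, or 0.87 and 0.284 per kb.

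**Figure D1:**
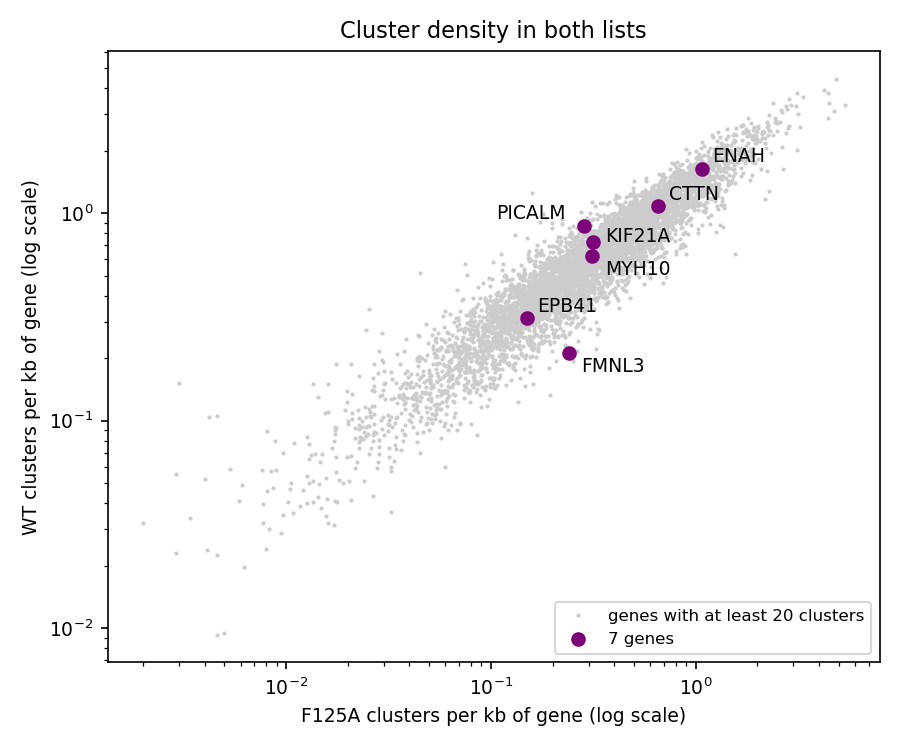
Each point is a gene, with F125A clusters per kb on the x axis and WT clusters per kb on the y axis, both on log scales. Grey points are the genes with a sum of 20 clusters or more and at least 1 in each list. ENAH and CTTN lie at the dense end with 1.64 and 1.08 WT clusters per kb, and FMNL3 lies low in WT clusters for its F125A clusters (0.212 against 0.24 per kb).

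Relative to the list totals, 1 of the 7 genes lay 2-fold or more toward F125A and 0 lay 2-fold or more toward WT. Over all 5626 genes tested, 1.99% lay that far toward F125A and 2.51% toward WT. The measure, on the log2 scale, was WT over F125A clusters after adding 1 to both, less the value for the whole lists (0.96). Over the 7 genes 4 ratios were above 0 and 3 below, with a median of 0.01, and over all genes 2618 were above and 3008 below, with a median of -0.04.

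FMNL3 was the gene past 2-fold, with a log2 ratio of -1.13 (interval -2.25 to -0.05), at percentile 1.08 of the genes tested. It rests on 32 clusters, and its interval reaches close to 0. ENAH also lay below 0, at -0.34 (-0.62 to -0.06, percentile 25.96), as did CTTN at -0.27 (-1.0 to 0.53, percentile 31.37). Both ratios lay within the quartiles of all genes tested, -0.36 to 0.26. The interval of CTTN included 0 and those of FMNL3 and ENAH did not.

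PICALM lay furthest toward WT, with 3.06 WT clusters for each F125A cluster and a log2 ratio of 0.62 (0.06 to 1.28), at percentile 91.4. KIF21A lay at 0.23 (-0.26 to 0.78), EPB41 at 0.08 (-0.50 to 0.72) and MYH10 at 0.01 (-0.49 to 0.55), all with intervals that included 0. Of the 21 pairs among the 7 genes, 2 had intervals that did not overlap, PICALM with ENAH and PICALM with FMNL3. These intervals cover counting error and are no test of a difference between the genes.

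The ratio moved with gene length, from a median of -0.72 in the shortest of 20 bins of length to 0.42 in the longest, so each was also set against the median of its own bin. FMNL3 then lay at -1.07 (percentile 0.31 of all genes after the same step), ENAH at -0.47 (percentile 8.81) and PICALM at 0.53 (percentile 89.4). KIF21A lay at 0.10, CTTN at -0.07, MYH10 at -0.12 and EPB41 at -0.13. FMNL3, ENAH and PICALM therefore kept their side of 0, whereas EPB41 and MYH10 passed from just above 0 to just below it.

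**Figure D2:**
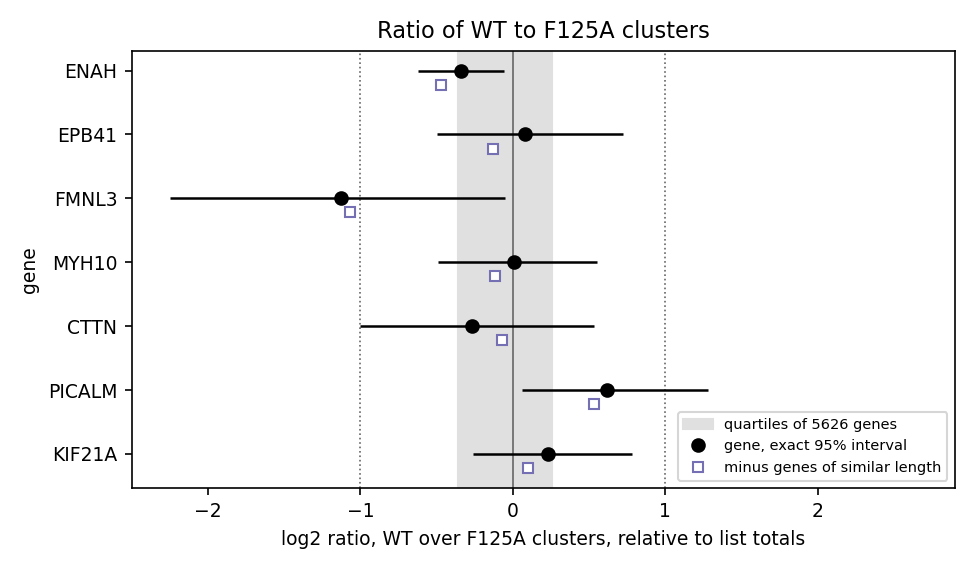
Black points give each gene's log2 ratio of WT to F125A clusters relative to the list totals (x axis), with the exact 95% interval as a line, and open squares the ratio minus that of genes of similar length. The grey band spans the quartiles of the 5626 genes tested (-0.36 to 0.26) and dotted lines mark 2-fold. FMNL3 at -1.13 is the only point beyond a dotted line, and PICALM at 0.62 is the highest.

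Most F125A clusters of the 7 genes lay at places that the WT list also held. Of 383 F125A clusters, 332 shared 1 nt or more with a WT cluster of the same strand, or 86.7% (interval 82.9 to 89.9%), beside 85.5% over all F125A clusters. Of 707 WT clusters, 339 overlapped an F125A cluster, or 47.9% (44.2 to 51.7%), beside 45.2% over all. As the F125A list is the shorter, a WT cluster without a partner is not shown to be lost with F125A.

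In MYH10, ENAH and PICALM nearly every F125A cluster had a WT partner: 47 of 49 in MYH10 (95.9%, 86 to 99.5%), 163 of 178 in ENAH (91.6%, 86.5 to 95.2%) and 29 of 32 in PICALM (90.6%, 75 to 98%). In CTTN it was 22 of 25 (88%, 68.8 to 97.5%) and in KIF21A 39 of 47 (83%, 69.2 to 92.4%). EPB41 and FMNL3 were lower. In EPB41 22 of 35 had a partner (62.9%, 44.9 to 78.5%) and in FMNL3 10 of 17 (58.8%, 32.9 to 81.6%), at percentiles 5.06 and 3.1 of all genes tested, and both intervals lay below the 85.5% of the whole list.

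The WT clusters were ordered differently. FMNL3 (11 of 15, 73.3%, 44.9 to 92.2%) and ENAH (165 of 274, 60.2%, 54.2 to 66.1%) had the highest shares with an F125A partner, followed by CTTN (22 of 41, 53.7%) and MYH10 (49 of 97, 50.5%). In KIF21A 40 of 109 had one (36.7%), in PICALM 30 of 98 (30.6%, 21.7 to 40.7%) and in EPB41 22 of 73 (30.1%, 19.9 to 42%). EPB41 was therefore low in both directions, while PICALM was low in the WT direction only. The share over all WT clusters was 45.2%, and those of EPB41 and PICALM stood at percentiles 14.3 and 15.2 of all genes tested. The WT share is limited by the number of F125A clusters in a gene, 32 beside 98 WT clusters in PICALM. The order of the WT shares thus partly repeats that of the ratios above. In PICALM the few F125A clusters mostly fell on WT places and 68 WT clusters had no partner.

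**Figure D3:**
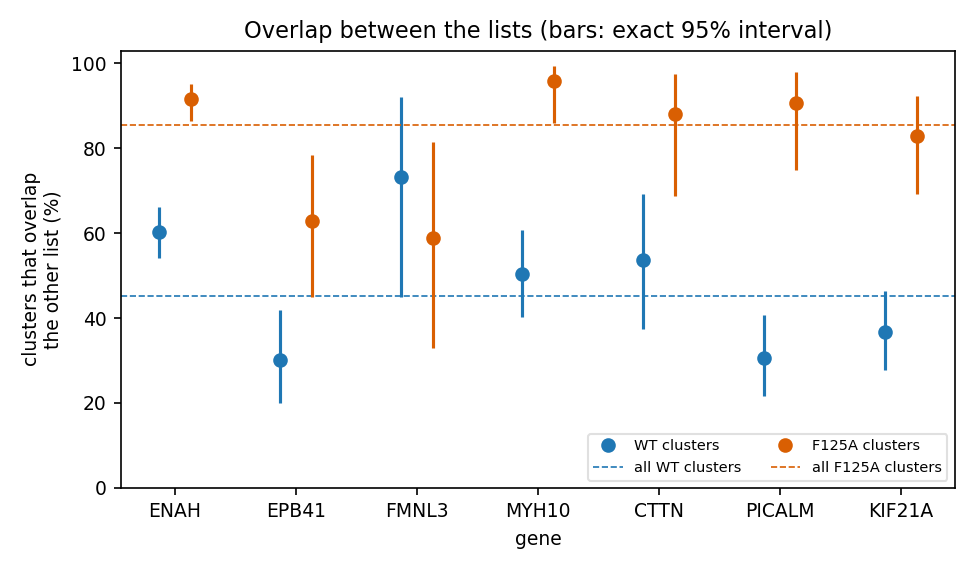
For each gene (x axis) the points give the percentage of its clusters that overlap a cluster of the other list (y axis), blue for WT and orange for F125A, with exact 95% intervals as bars. Dashed lines give the shares over all clusters, 45.2% for WT and 85.5% for F125A. EPB41 (62.9%) and FMNL3 (58.8%) lie below the F125A line with their whole intervals.

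Of the 51 F125A clusters without a WT partner, 6 (11.8%) lay within 50 nt of a WT cluster of the same strand, and their median distance to the nearest was 338 nt. Over all 27229 such clusters 13.7% lay that close, and the median distance was 410 nt. In EPB41 the 13 such clusters lay at a median of 1180 nt from the nearest WT cluster and at most 7913 nt away. The most remote of the 51 was in FMNL3, a 65-nt cluster at 49674350 to 49674414 of chromosome 12, 8660 nt from the nearest WT cluster. In ENAH there were 15, with a median distance of 338 nt, and 3 of them lay close together at 225507067 to 225507982.

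Where clusters of both lists overlapped, their ends were often the same within a few bases. The 7 genes held 363 overlapping pairs, of which 51.5% had 5' ends within 5 nt of each other and 52.3% had 3' ends within 5 nt, beside 52.9% and 54.4% of 173964 pairs over all genes. In each of the 7 genes the shared stretch took up a median of at least 97.9% of the shorter cluster of a pair. Taking the single longest shared stretch of each gene, it was 124 nt in CTTN (WT cluster 70420510 to 70420648, F125A cluster 70420508 to 70420633), 121 nt in ENAH (225602078 to 225602208 and 225602070 to 225602198) and 101 nt in PICALM (85967680 to 85967802 and 85967676 to 85967780). In ENAH 3 pairs were identical to the base, among them 225641156 to 225641262, and in CTTN 1 was. These 4 were 1.1% of the 363 pairs, beside 3.91% of the pairs over all genes. The shares over all genes include a block of 3249 clusters that both lists hold in the same form, none of them in the 7 genes. The 3.91% is therefore no like-for-like background, and the lower share is no finding about the 7 genes.

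The other genes had such a place too. In EPB41 the longest shared stretch was 100 nt (28937786 to 28937886 and 28937781 to 28937885), in MYH10 98 nt (8530430 to 8530566 and 8530469 to 8530568) and in KIF21A 93 nt (39441135 to 39441233 and 39441138 to 39441230). In FMNL3 it was 63 nt (49687882 to 49687950 and 49687858 to 49687944). Each pair is thus a place found with both forms of Rbfox1, but the lists give no amount of RNA at it.

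Clusters of the 7 genes had the usual length. Their median was 61 nt in the WT list (quartiles 50 and 79) and 64 nt in the F125A list (52 and 84), beside 60 and 64 nt over all clusters. By gene the WT median ran from 56 nt in FMNL3 to 64 nt in ENAH and the F125A median from 56 nt in FMNL3 to 67 nt in PICALM. In 4 genes the F125A median was the longer, in MYH10 (62 nt with WT, 59 nt with F125A) and CTTN (60 and 59 nt) the WT median was, and in FMNL3 both were 56 nt. All 7 pairs of medians had overlapping intervals.

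Clusters of 100 nt or more made up 63 of the 707 WT clusters of the 7 genes (8.91%) and 49 of the 383 F125A clusters (12.8%), beside 8.18% and 11.9% over all clusters. Of these, 49.2% with WT and 28.6% with F125A overlapped no cluster of the other list, beside 41.8% and 21.7% of all clusters of that length. The single longest cluster of each gene overlapped none in 5 of 7 genes with WT and in 4 of 7 with F125A. The same count was not made for other genes, so it has no background. The percentages above are for clusters of 100 nt or more and cannot serve as one. In ENAH the longest WT cluster was 167 nt (225509792 to 225509958) and overlapped no F125A cluster, while the longest F125A cluster, 152 nt (225616229 to 225616380), shared 108 nt with WT. In EPB41 the longest WT cluster, 127 nt (29057977 to 29058103), and the longest F125A cluster, 149 nt (28992088 to 28992236), both had no partner. In FMNL3 the same held for 77 nt (49683075 to 49683151) with WT and 146 nt (49649482 to 49649627) with F125A. In MYH10 both had a partner, 137 nt (8530430 to 8530566) with WT and 123 nt (8591695 to 8591817) with F125A.

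In CTTN the longest WT cluster was the 139-nt place named above, with a partner, and the longest F125A cluster, 128 nt (70425365 to 70425492), had none. In PICALM they were 146 nt (86050386 to 86050531) without and 106 nt (86049815 to 86049920) with a partner. In KIF21A they were 150 nt (39322372 to 39322521) and 104 nt (39424250 to 39424353), both without. Clusters of 100 nt or more were 30 of 274 with WT (10.9%) and 24 of 178 with F125A (13.5%) in ENAH. In CTTN they were 6 of 41 (14.6%) and 7 of 25 (28%), and in EPB41 7 of 73 (9.59%) and 9 of 35 (25.7%). In KIF21A they were 11 of 109 (10.1%) and 1 of 47 (2.13%).

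In 6 of the 7 genes clusters of both lists began within 2 kb of the gene start, and EPB41 was the exception. Distances are from the outermost annotated gene start. The first clusters lay 202 nt (WT) and 190 nt (F125A) from it in KIF21A, 394 and 395 nt in MYH10, and 325 and 321 nt in CTTN. The first clusters of the 2 lists thus began within 12 nt of each other in these genes, in ENAH, at 1507 and 1505 nt, and in EPB41, at 27878 and 27890 nt from the outer start. In PICALM they lay 1796 and 1713 nt from it, and in FMNL3 the first F125A cluster lay at 834 nt and the first WT cluster at 1896 nt.

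**Figure D4:**
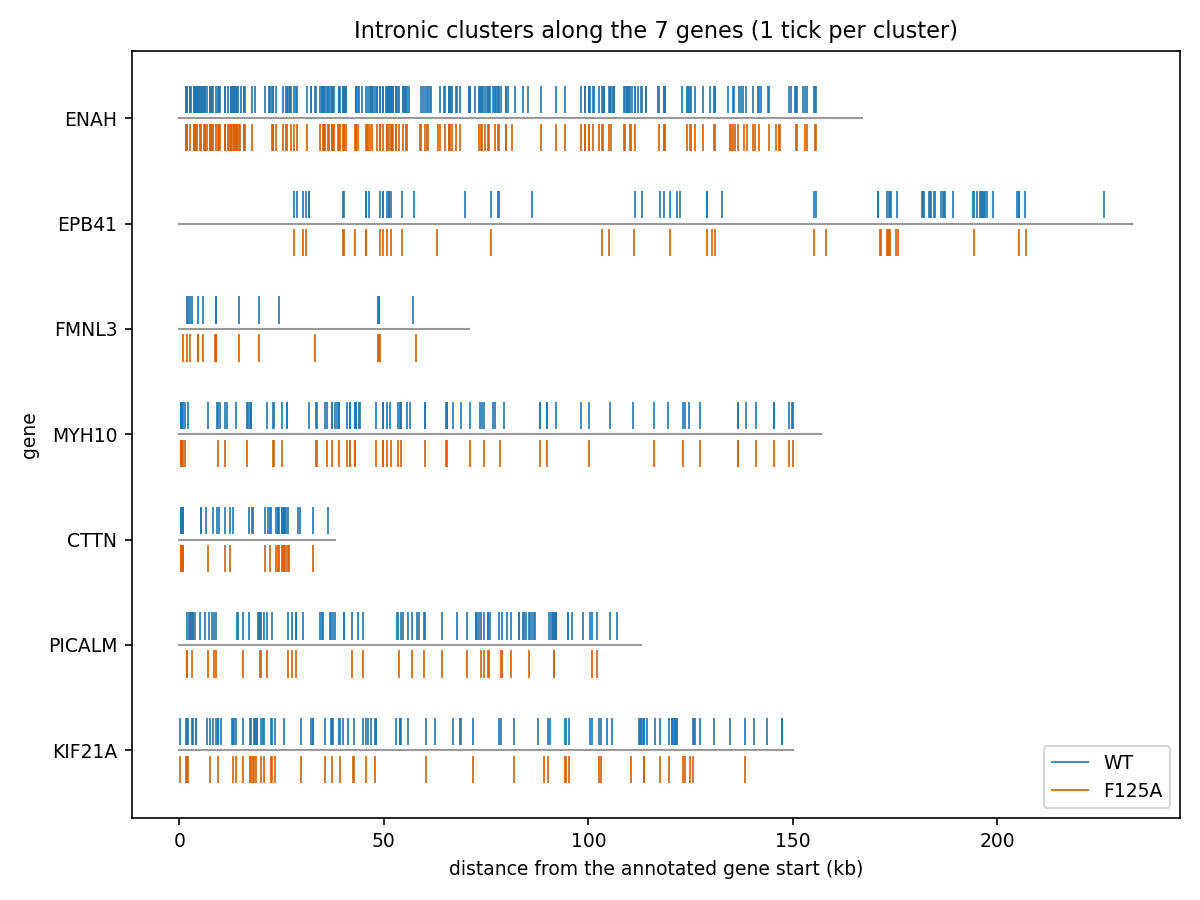
Each tick is 1 cluster at its distance in kb from the annotated gene start (x axis), blue above the line for WT and orange below it for F125A, and the grey line is the length of the gene. ENAH is filled by 274 WT and 178 F125A ticks, and EPB41 has none in its first 27.9 kb.

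ENAH clusters were gathered toward the start. The median WT cluster lay 52.6 kb from the start, at 31.5% of the gene, and the median F125A cluster at 29.6%. The first 10% of ENAH held 53 WT (19.3%) and 46 F125A clusters (25.8%), beside 13.9% and 15.6% over the genes tested. The window of 5 kb with most WT clusters, 50 to 55 kb from the start (225598879 to 225603878), had 20 WT and 10 F125A clusters, and the first 5 kb (225648879 to 225653878) had 19 and 12.

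The window from 10 to 15 kb of ENAH (225638879 to 225643878) ran the other way, with 13 WT and 16 F125A clusters. Of 2181 windows with at least 13 WT clusters in the genes tested, 2.52% had more F125A than WT clusters. That background includes windows with more WT clusters than 13. This window was named for having most F125A clusters in ENAH, and the background was not chosen in that way. Near 11 kb the F125A list divided a stretch into more touching clusters than the WT list did, the shortest 18 nt. The counts here thus partly show how continuous stretches were divided into clusters. In the first 15 kb, a stretch chosen after its values were seen, there were 50 WT and 43 F125A clusters, or 1.16 to 1, against 141 and 84 (1.68 to 1) from 15 to 80 kb. The log2 ratios were -0.75 (interval -1.36 to -0.12) and -0.22 (-0.62 to 0.19), and these intervals overlap. The last 11.4 kb of ENAH, from 225486829 to 225498188, held no cluster of either list.

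EPB41 had 2 windows rich in WT clusters without an F125A cluster. From 195 to 200 kb (29082100 to 29087099) there were 9 WT and 0 F125A clusters, and from 180 to 185 kb (29067100 to 29072099) 8 and 0. Among 9952 windows with at least 8 WT clusters in the genes tested, 0.754% had no F125A cluster, and the median was 6. That background includes denser windows, which have an F125A cluster more often. In it 7275 windows had at least 9 WT clusters, and 0.426% of these had no F125A cluster. From 175 to 180 kb there were 1 and 2, and from 170 to 175 kb (29057100 to 29062099) both lists had 6.

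The whole stretch from 175 to 200 kb of EPB41 (29062100 to 29087099), chosen after its values were seen, held 25 WT and 3 F125A clusters. From 25 to 175 kb there were 43 and 30, and after 200 kb 5 and 2. The log2 ratio was 1.74 (interval 0.38 to 4.47) in the stretch and -0.46 (-1.15 to 0.28) from 25 to 175 kb. These intervals take no account of how the stretch was chosen. The ratio of EPB41 near 0 was therefore the sum of a stretch with 8.33 WT clusters per F125A cluster and a longer one with 1.43. Accordingly the median WT cluster lay at 66.9% of the gene and the median F125A cluster at 47.8%.

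PICALM had its densest WT window near its end. From 90 to 95 kb (85974861 to 85979860) there were 12 WT and 2 F125A clusters, and of 2927 windows with at least 12 WT clusters in the genes tested 1.47% had 2 or fewer F125A clusters, with a median of 9. That background includes windows with more WT clusters than 12. The first 5 kb of PICALM (86064861 to 86069860) had 8 and 3, and its densest F125A window, 75 to 80 kb (85989861 to 85994860), 5 and 4. From 80 to 95 kb, chosen after the values were seen, there were 24 WT and 4 F125A clusters, against 66 and 26 in the first 80 kb. That is 6.0 WT clusters per F125A cluster in the stretch and 2.54 before it, both above the 1.95 of the whole lists. The log2 ratios were 1.36 (interval 0.08 to 3.61) and 0.35 (-0.29 to 1.10). These intervals overlap, and that of the first 80 kb includes 0. They take no account of how the stretch was chosen.

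**Figure D5:**
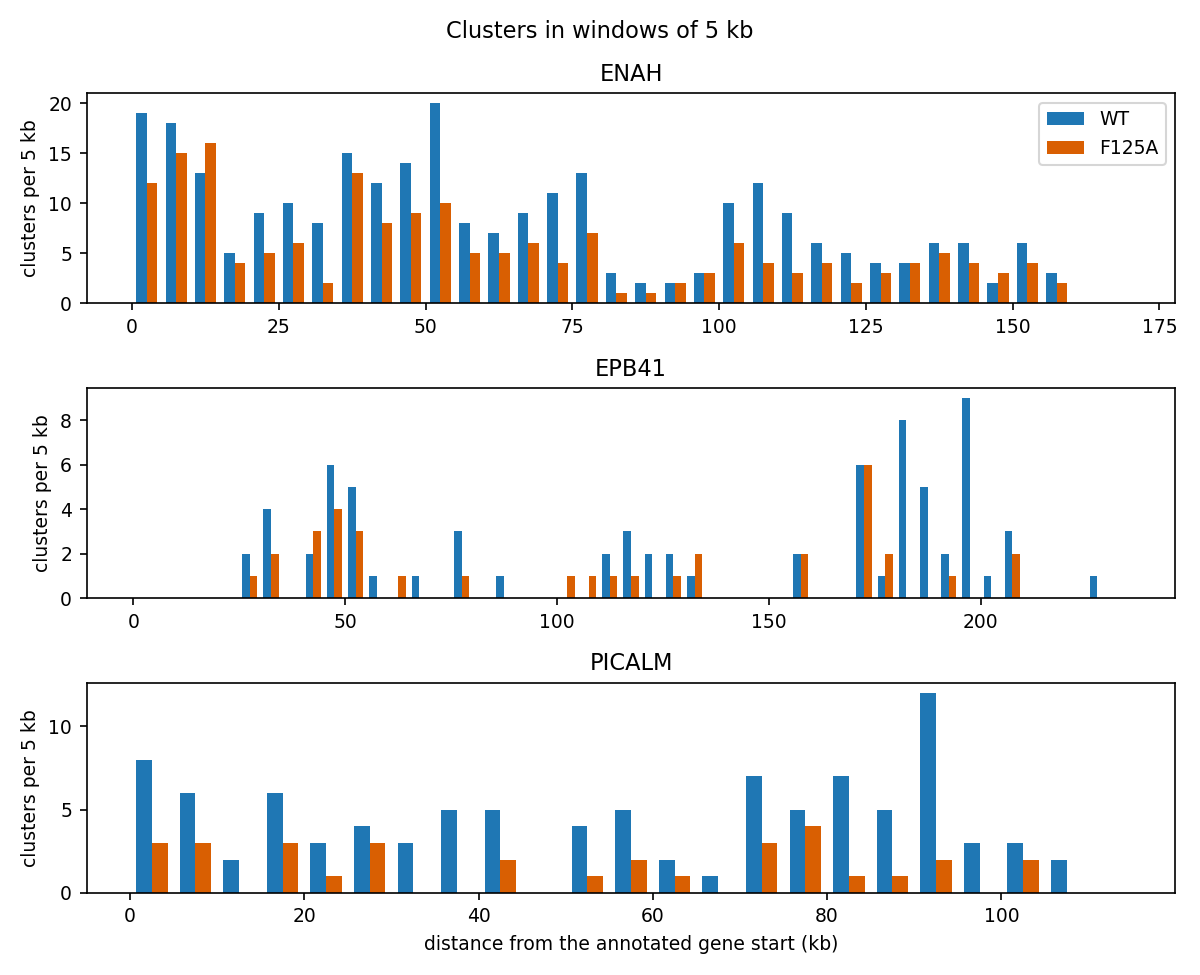
Bars give the number of WT (blue) and F125A (orange) clusters in windows of 5 kb, by distance in kb from the annotated gene start (x axis), for ENAH, EPB41 and PICALM, with a y axis of its own for each gene. In ENAH the window at 10 to 15 kb has 13 WT and 16 F125A clusters, in EPB41 the windows at 180 and 195 kb have 8 and 9 WT and 0 F125A clusters, and in PICALM the window at 90 kb has 12 and 2.

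The clusters of CTTN began with a close group at its start. All 8 WT and all 8 F125A clusters of its first 5 kb lay within its first 1 kb, from 70398854 to 70399381 with WT and from 70398850 to 70399437 with F125A. They were followed by 4.24 kb without a cluster (70399438 to 70403676). The 4 windows from 5 to 25 kb held 3 to 8 WT and 0 to 5 F125A clusters each. The window with most WT clusters was from 25 to 30 kb (70423529 to 70428528), with 11 WT and 8 F125A clusters. Together the first 5 kb and this window held 64% of the F125A clusters of CTTN and 46.3% of its WT clusters. Many of these clusters lay end to end: in CTTN 8 neighbouring WT pairs and 10 neighbouring F125A pairs touched. The shares thus partly count how continuous stretches were divided into clusters.

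In MYH10 both lists were gathered toward the start, with 74.2% of WT and 73.5% of F125A clusters in the 5' part that makes up 50% of the gene, beside 59.8% and 60.7% over the genes tested. Its densest WT windows were from 40 to 45 kb (8585726 to 8590725), with 9 and 6, and from 35 to 40 kb (8590726 to 8595725), with 9 and 3. Its densest F125A window was the first 5 kb (8625726 to 8630725), with 8 WT and 7 F125A clusters. The longest empty stretch ran from 8494246 to 8503490, 9.24 kb.

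WT clusters covered 4.82% of KIF21A but were spread over its whole length. All 30 of its windows held a WT cluster, as did all 8 of CTTN and 32 of 34 in ENAH. In KIF21A 21 windows held an F125A cluster. The densest was from 15 to 20 kb (39423121 to 39428120), with 9 WT and 7 F125A clusters, and the first 5 kb (39438121 to 39443120) had 8 and 4. The last F125A cluster lay 11.5 kb before the end of the gene and the last WT cluster 2.37 kb before it, and the longest stretch without either was 6.37 kb (39364970 to 39371336).

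FMNL3 had most of its few clusters near the start. The first 5 kb (49702406 to 49707405) held 5 WT and 5 F125A clusters and the next 5 kb (49697406 to 49702405) 3 and 5. The longest empty stretch, 15.5 kb from 49658824 to 49674349, took up 21.9% of the gene. The surplus of F125A clusters was thus 2 clusters in all, and both lists had the same median position, 12.5% of the gene.

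Neighbouring clusters of 1 list lay under 50 nt apart in 14.7% of WT and 12.2% of F125A cases over the genes tested. The shares were 35% and 41.7% in CTTN, 26% and 22% in ENAH and 21.4% and 25% in FMNL3, which has few clusters. They were 16.7% and 18.8% in MYH10, 13% and 4.35% in KIF21A, 10.3% and 6.45% in PICALM and 9.72% and 0% in EPB41. In ENAH merging such neighbours left 203 of 274 WT and 139 of 178 F125A clusters. In CTTN merging left 27 of 41 and 15 of 25. In EPB41 it left 66 of 73 and all 35 F125A clusters, and in PICALM 88 of 98 and 30 of 32.

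The genes nearest to each of the 7 in both densities and in length were found by the distance over 3 log2 values, WT clusters per kb, F125A clusters per kb and gene length, among genes with clusters in both lists. With only 2 lists this likeness says that the numbers are close and nothing more. For ENAH they were IGF2BP3 (280 and 161 clusters, distance 0.14) and DYRK1A (291 and 170, 0.15). For EPB41 the nearest was its own paralog EPB41L3 (81 and 37, 0.13), followed by ANO6 (75 and 32, 0.13).

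For MYH10 the nearest were LIMS1 (95 and 50, distance 0.06) and INPP4A (95 and 46, 0.08), and for KIF21A CREBBP (112 and 51, 0.08) and CBFA2T2 (118 and 50, 0.10). For CTTN they were UTP18 (40 and 26, 0.09) and FBXO22 (43 and 24, 0.10), and for PICALM NSUN6 (100 and 33, 0.04) and FAM120A (107 and 36, 0.18). FMNL3 had the most distant neighbours, ZDHHC11 (15 and 15, 0.19) and POM121 (14 and 15, 0.24).

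Paralogs and partners of the 7 genes gave 62 further genes, of which 60 had a cluster and 47 could be tested. Of these 0 lay 2-fold or more toward either list, 30 had a log2 ratio above 0 and 17 below, and the median was 0.15 (0.04 after the step for length). Over all 5626 genes tested 2.51% lay that far toward WT and 1.99% toward F125A, so 0 of 47 is near that share. Over the same genes 2618 ratios were above 0 and 3008 below. Among 16 tested paralogs 12 had ratios above 0 and 4 had ratios below it (median 0.27, and 0.05 after the step for length). The list was drawn up with earlier results of these data known.

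Paralogs of 1 gene held very different numbers of clusters. FMNL2, another formin, had 216 WT and 89 F125A clusters, and FMNL1 had 2 and 1. The log2 ratio of FMNL2 was 0.31 (interval -0.05 to 0.69), and -0.00 after the step for length. FMNL3 lay at -1.13, and at -1.07 after that step. EPB41L2 had 296 and 159 clusters and a ratio of -0.07 (-0.35 to 0.22), whereas EPB41L1 had 13 and 5. MYH9, the other abundant non-muscle myosin heavy chain, had 70 and 30 (0.23, -0.38 to 0.93) beside 97 and 49 in MYH10.

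EVL, related to ENAH, had 43 and 22 clusters in 173 kb, 0.249 and 0.127 per kb against 1.64 and 1.07 in ENAH, and VASP had 3 and 0. KIF21B had 14 and 11 (-0.64, -1.86 to 0.67) and SNAP91, the neuronal relative of PICALM, 19 and 6 (0.55, -0.68 to 2.31). HCLS1, the blood cell relative of CTTN, had none. Both lists were thus denser in ENAH than in EVL.

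Among partners, the 10 tested actin assembly genes had 5 ratios above and 5 below 0 (median -0.02, and 0.08 after the step for length). The 9 spectrin and adducin genes and their neighbours had 5 and 4 (median 0.04, and -0.15 after that step). The 8 tested clathrin partners of PICALM had 4 and 4 (median 0.01, and 0.04 after it), with CLTC, the clathrin heavy chain, at 81 and 37 clusters (0.15, -0.41 to 0.77). All 4 tested cortical and motor partners lay above 0 (median 0.45, and 0.23 after the step for length), including KANK1, which recruits KIF21A to the cortex, with 71 and 24 clusters (0.56, -0.08 to 1.33). ROCK1, a kinase that activates non-muscle myosin, had 65 and 23 (0.50, -0.17 to 1.29).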

How the data were processed

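Nuclease-protected RNA of purified complexes was sequenced. The tools cutadapt and STAR and the build hg38 are named in the submitters' processing notes, without versions. The authors deposited 1 list of intronic clusters for each Rbfox1 group. Per the file headers the columns are the chromosome, both ends of the cluster in nt, its gene, region and strand, without count, score or p-value. How clusters were called, at which threshold, from which combination of libraries and with what use of the control is not stated in the labels or headers. The control library was not analysed here. Starts were read as counted from 0 and are printed counted from 1.

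Rows equal to an earlier row were dropped (7029 WT and 4851 F125A rows, 0 of them in the 7 genes). Genes were placed by the RefSeq GRCh38.p14 table, which matched all 7 by symbol, and exon positions were not used. Genes whose clusters summed to 20 or more over both lists were tested, and clusters were put in 5-kb windows by their midpoint. Lists were counted with Python 3.11.15, numpy 2.4.6, pandas 2.3.3 and scipy 1.17.1, and checked on simulated data. The rule for named items gave all 7 genes, the 2 windows with most WT clusters, the longest cluster, the longest empty stretch, up to 3 shared places, 2 nearest genes, and paralogs. Windows named for having most F125A clusters were outside that rule. The genes and lists were chosen with earlier results of these data known.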

Additional observations from a re-analysis of the deposited data

How the results depend on the processing

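The log2 ratios of all 7 genes stayed within their counting intervals under the 7 alternatives tried for them: 5 added in place of 1, merging of clusters closer than 50 nt, repeats kept, the stretch of rows identical in both lists dropped, centring on the median gene, genes of similar length subtracted, and covered nt in place of clusters. Keeping repeats, dropping the identical stretch and centring on the median gene could only shift all 7 genes by the same amount. The 7 genes had 0 repeated rows and 0 rows in that stretch, so these alternatives are no check of single genes. FMNL3 ran from -1.25 (covered nt) to -1.03 (merged). With partners counted within 50 nt, 52.3% of the WT clusters of the 7 genes had a partner, in place of 47.9%. With at least 50% of the cluster covered, 82.5% of F125A clusters had one, in place of 86.7%. Merging, which joins neighbours by construction, raised the median length from 61 to 67 nt in the WT list and from 64 to 69 nt in the F125A list. With genes of at least 10 clusters included, 1 partner gene, PFN1 (5 and 6 clusters), lay 2-fold or more toward F125A, and the genes tested went from 5626 to 7571. Those past 2-fold went from 141 (2.51%) to 263 (3.47%) toward WT and from 112 (1.99%) to 273 (3.61%) toward F125A. With 5 added, 36 of 5626 (0.64%) lay that far toward WT and 112 (1.99%) toward F125A.

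The planned share of clusters with the Rbfox pentamer was not run, as sequence was at hand for the promoter windows but not for the clusters. No paired analysis was possible because each group is 1 list without replicates, and for the same reason no library was left out. Depth is unknown, so a window with 0 F125A clusters is not shown to lack RNA.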
